A study of Mus musculus with 4 samples.

Results

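Retinoid transport and metabolism is described here by 9 genes, picked by symbol from the 18781 rows of the expression table: Rbp4, Stra6, Rdh10, Retsat, Aldh1a1, Aldh1a3, Crabp1, Crabp2 and Cyp26b1. All 9 symbols were found. The libraries hold RNA of purified mature adipocytes from C57BL/6 mice at postnatal day 30, 2 from the fat layer of dorsal skin (dermal) and 2 from the inguinal fat pad. The labels give no genotype, treatment or sex, and do not say whether the 2 libraries of a depot came from separate animals, so every p-value measures only the spread between these libraries. Cells were freed with collagenase and dispase and collected by flotation, a preparation that can carry attached cells of other types.

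Vitamin A reaches tissues mainly as retinol bound to its plasma carrier RBP4, or as retinyl esters in lipoproteins. Inside cells retinol is oxidised first to retinaldehyde and then, irreversibly, to retinoic acid, the ligand of nuclear receptors that pair with the retinoid X receptors. Binding proteins carry retinoic acid within the cell, and CYP26 enzymes degrade it. White fat is a retinoid store and a source of circulating RBP4, and in skin retinoic acid acts on the epidermis and the hair follicle.

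Of the 9 genes, 4 were expressed above 10 CPM in every library: Rbp4, Aldh1a1, Retsat and Rdh10. CPM here means counts scaled to library size by the authors. Aldh1a3 and Cyp26b1 lay between 0.182 and 3.72 CPM, and Stra6, Crabp1 and Crabp2 stayed at or below 0.485 CPM in every library. These last 3 did not reach the expression filter, 1 CPM in at least 2 libraries, and were not tested. No gene of the set passed the test between depots, with 0 of 6 tested called at a limma adjusted p below 0.05, against 16.4% of all 12797 tested genes (7.56% higher in dermal, 8.8% higher in inguinal). Without adjustment 4 of the 6 had p below 0.05, against 32.5% of all tested genes. edgeR on the recovered reads likewise had 4 unadjusted and 0 adjusted calls, while DESeq2 had 4 and 2, the 2 being Aldh1a1 (higher in dermal, adjusted p = 0.00966) and Aldh1a3 (higher in inguinal, adjusted p = 0.0247). With DESeq2 the shares over all tested genes were 25% unadjusted and 15.5% adjusted. The values of 5 of the 6 did not overlap between depots, against 61.8% of all tested genes. Of these, Aldh1a1 lay higher in dermal libraries, as did 31.6% of all tested genes, and Rdh10, Retsat, Aldh1a3 and Cyp26b1 lay higher in inguinal libraries, as did 30.1%. The median log2 fold change of the 6, dermal over inguinal, was -0.42, against 0.02 over all tested genes. It is a description only, since Aldh1a3 reached the filter through the inguinal libraries alone. Cyp26b1 also depended on them, with only 1 dermal library at 1 CPM or more.

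**Figure D1:**
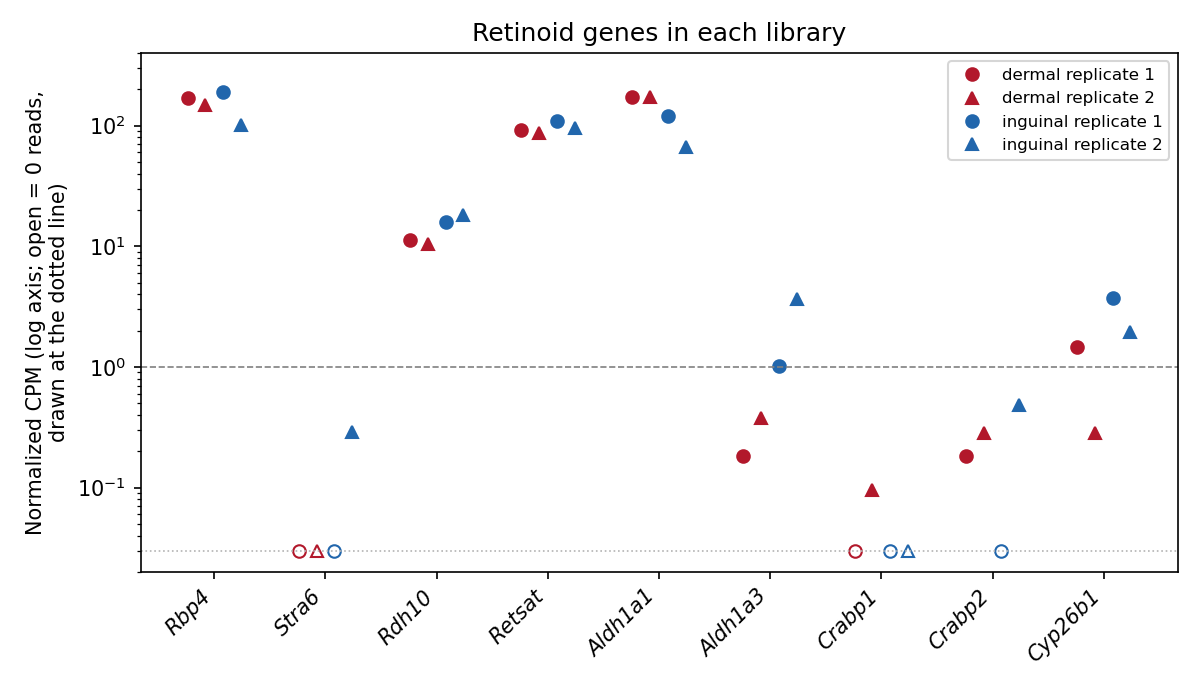
Normalized CPM of the 9 retinoid genes (log axis) in each of the 4 libraries. Colours mark the depot, shapes the replicate, open symbols 0 reads, and the dashed line the 1 CPM used by the expression filter. Rbp4, Aldh1a1, Retsat and Rdh10 lie above 10 CPM in every library, and Stra6, Crabp1 and Crabp2 below 1 CPM in every library.

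Levels of different genes can be compared only per length. Per kilobase of annotated exon, Rbp4 was the most abundant of the 9 in each library, at 127, 110, 142 and 75.6 CPM per kilobase in dermal replicates 1 and 2 and inguinal replicates 1 and 2. Aldh1a1 followed in the dermal libraries at 34.8 in both, and Retsat in the inguinal libraries at 31.0 and 27.1. The order of these neighbours rests on the length chosen in inguinal replicate 1: with the longest transcript in place of all exons Aldh1a1 reached 50.6 and Retsat 36.2 CPM per kilobase there. Rdh10 came next at 2.51 to 4.40 CPM per kilobase. The other 5 genes were below 1 CPM per kilobase of exon in every library.

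Rbp4, the retinol carrier (chromosome 19, 38116629 to 38125281, minus strand), measured 171 and 148 CPM in dermal libraries, against 191 and 102 CPM in the inguinal pair. The inguinal pair enclosed the dermal pair, so the depots overlapped. The log2 fold change was 0.19 (SE 0.28, limma adjusted p = 0.690), and its 95% interval of -0.49 to 0.87 corresponds to a dermal level between 0.71 and 1.83 times the inguinal one. The sign turned on which inguinal library was kept: the estimate was 0.64 without inguinal replicate 1 (limma adjusted p = 0.0184) and -0.26 without inguinal replicate 2 (limma adjusted p = 0.293). The insulin-responsive glucose transporter gene Slc2a4, set beside Rbp4 after its values were seen, measured 163 and 132 CPM in dermal libraries, against 213 and 107 CPM in the inguinal pair. The ratio of Rbp4 to Slc2a4 within a library was 1.05 and 1.11 in dermal and 0.896 and 0.948 in inguinal libraries. Set against the adiponectin gene Adipoq instead, Rbp4 gave ratios of 0.0456 and 0.0372 in dermal and 0.0573 and 0.0342 in inguinal libraries, which overlapped.

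Stra6, the membrane receptor for RBP4, gave 0 reads in 3 libraries and 3 reads in inguinal replicate 2 (0.291 CPM). At the depth of these libraries a count of 0 allows up to 3 reads, which is 0.253 to 0.291 CPM, so no depot difference was detectable, and intervals and limits of this kind cover counting error only. Of other genes for blood transport and uptake, 6 of 7 in the table were tested. Of these, 1 was called for dermal and 1 for inguinal, beside 7.56% and 8.8% of all tested genes. Lrp1, a receptor that clears lipoprotein remnants, was higher in dermal libraries, at 1116 and 1085 CPM against 404 and 455 CPM (log2 fold change 1.36, SE 0.14, limma adjusted p = 0.00311). Vldlr, a receptor for triglyceride-rich lipoproteins, was higher in inguinal libraries, at 98.6 and 103 CPM against 28.4 and 49.0 CPM (log2 fold change -1.42, SE 0.25, limma adjusted p = 0.0150). The 4 others did not pass, among them Lpl, the lipoprotein lipase gene and the one with the highest mean CPM of this list, at 6786 and 6757 CPM in dermal libraries, against 6010 and 5812 CPM in the inguinal pair.

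Rdh10, which encodes the enzyme that oxidises retinol to retinaldehyde (chromosome 1, 16105774 to 16133734, plus strand), measured 11.3 and 10.4 CPM in dermal libraries, against 16.0 and 18.3 CPM in the inguinal pair. Both inguinal libraries lay above both dermal ones. The log2 fold change was -0.63 (SE 0.18, 95% interval -1.06 to -0.21) with a limma adjusted p = 0.0573, just short of the threshold. The adjusted p was below the threshold with quantile normalization (0.0460). In the other alternatives with all libraries and no replicate term it was above, from 0.0546 with the filter at 5 CPM to 0.128 with DESeq2. Over the alternatives without a replicate term the estimate stayed between -0.73 and -0.54.

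Dhrs3, a reductase that turns retinaldehyde back into retinol and works with RDH10, did not pass. It measured 194 and 146 CPM in dermal libraries, against 159 and 107 CPM in the inguinal pair (log2 fold change 0.37, SE 0.23, limma adjusted p = 0.319), so the depots overlapped. The estimate was 0.65 without inguinal replicate 1 (adjusted p = 0.0331), 0.08 without inguinal replicate 2 (adjusted p = 0.810) and 0.16 without dermal replicate 1 (adjusted p = 0.804). None of the 12 tested genes in the list of retinol and retinaldehyde oxidoreductases passed in either direction, against 16.4% of all tested genes. Their median log2 fold change was -0.03. The other 8 in the table, including Rdh1, Rdh16 and Adh7, were below the filter.

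Retsat, the retinol saturase (chromosome 6, 72598475 to 72608425, plus strand), converts retinol to a dihydro form and is induced during adipocyte differentiation. It measured 91.8 and 86.1 CPM in dermal libraries, against 110 and 95.9 CPM in the inguinal pair. The pairs did not overlap but lay close, with a log2 fold change of -0.20 (SE 0.13, limma adjusted p = 0.333). Its 95% interval, -0.52 to 0.11, is the narrowest of the 6 tested genes and corresponds to a dermal level between 0.70 and 1.08 times the inguinal one.

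Aldh1a1, a retinaldehyde dehydrogenase that makes retinoic acid (chromosome 19, 20492715 to 20643465, plus strand), measured 171.6 and 171.9 CPM in dermal libraries, against 119 and 66.6 CPM in the inguinal pair. Both dermal libraries were higher, and the inguinal libraries differed from each other by 1.79-fold. The log2 fold change was 0.94 (SE 0.26, 95% interval 0.31 to 1.57) with a limma adjusted p = 0.0572. The estimate was positive in each alternative, and leaving out either inguinal library, which removes the spread between them, gave 1.36 without replicate 1 (adjusted p = 0.000166) and 0.52 without replicate 2 (adjusted p = 0.0339). Without either dermal library it was 0.94 both times, with adjusted p of 0.132 and 0.129, and without the intensity trend the adjusted p was 0.106. With the columns rescaled to 1 common total it was 1.02 (adjusted p = 0.0334).

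The near neighbour Aldh1a7 (chromosome 19, 20692953 to 20727562, minus strand), a close copy of Aldh1a1 whose role in retinoid metabolism is less clear, had the opposite sign. It measured 96.4 and 97.4 CPM in dermal libraries, against 226 and 107 CPM in the inguinal pair (log2 fold change -0.68, SE 0.32, limma adjusted p = 0.198). The estimate was -0.14 without inguinal replicate 1 (adjusted p = 0.554) and -1.21 without inguinal replicate 2 (adjusted p = 0.000374). Within a library the ratio of Aldh1a1 to Aldh1a7 was 1.78 and 1.76 in dermal and 0.529 and 0.622 in inguinal libraries. This ratio was chosen after the values were seen and is given without a test. The sum of the pair was 268 and 269 CPM in dermal libraries, against 345 and 174 CPM in the inguinal pair, so the sum overlapped between depots while the ratio did not.

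The transcripts of the pair can share reads. Of the 2309 windows of 50 bases in the longest Aldh1a1 transcript, 151 (6.54%) occur unchanged in a transcript of another gene, chiefly Aldh1a7, and the same 151 make up 7.49% of the Aldh1a7 windows. None of the windows of the other 8 retinoid genes occur in another gene's transcript. The pair is also alike upstream of its start sites, which is why both stretches are shown, each running from base -110 to base -11 before the RefSeq start, 5′ to 3′ on the strand of the gene, with the bases that differ in capitals.
Aldh1a1, GRCm38.p6 chr19:20601858-20601957, plus strand: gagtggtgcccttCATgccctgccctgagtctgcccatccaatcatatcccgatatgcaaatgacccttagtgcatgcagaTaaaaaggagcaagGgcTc
Aldh1a7, GRCm38.p6 chr19:20727567-20727666, minus strand: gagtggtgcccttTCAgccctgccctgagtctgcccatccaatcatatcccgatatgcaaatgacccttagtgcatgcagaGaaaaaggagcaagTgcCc
Over these 100 bases 94 are identical, and the longest run without a difference is 65 bases. RefSeq lists 2 start sites for Aldh1a1, and the one more alike to that of Aldh1a7 is shown. Gene-level counts do not tell which start was used. GENCODE has C730002L08Rik and Gm6684 on the strand opposite to Aldh1a1. Gm6684 was not analysed here, and C730002L08Rik was at 0 CPM in 3 libraries and 0.194 CPM in inguinal replicate 2.

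**Figure D2:**
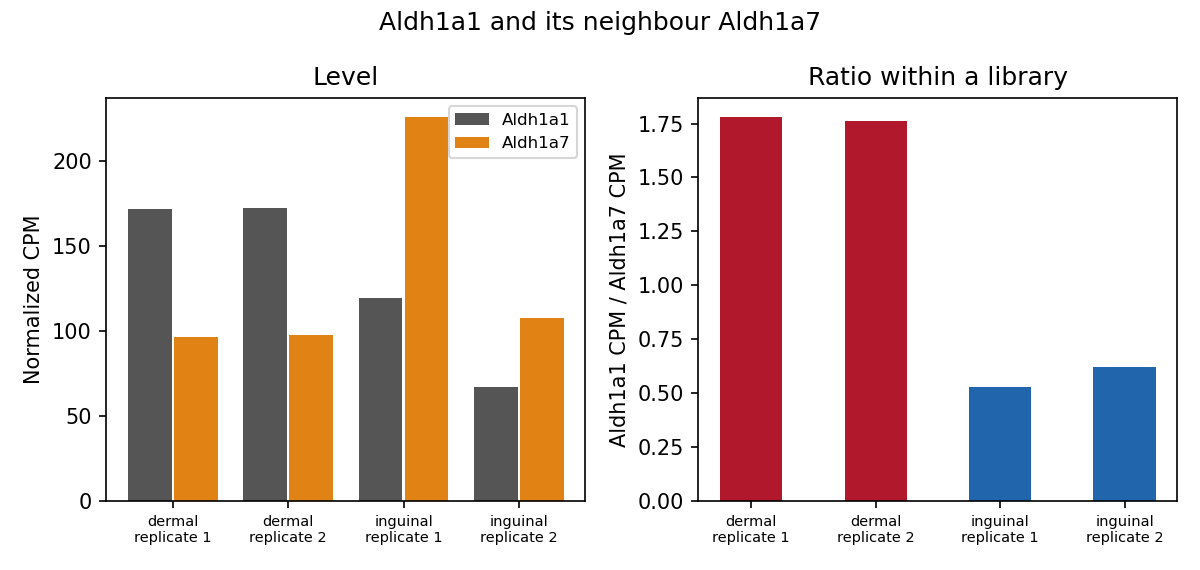
Left, normalized CPM of Aldh1a1 and Aldh1a7 in each of the 4 libraries. Right, the ratio of Aldh1a1 to Aldh1a7 within each library, at 1.78 and 1.76 for dermal, against 0.529 and 0.622 for inguinal libraries.

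Aldh1a3, a second enzyme of the same step (chromosome 7, 66390890 to 66427517, minus strand), was rare. It had 2 and 4 reads in dermal and 12 and 38 reads in inguinal libraries, or 0.182, 0.379, 1.01 and 3.68 CPM. Both inguinal libraries were higher, and they differed from each other by 3.64-fold. On summed reads the inguinal level was 8.10 times the dermal one, with a 95% counting interval of 3.47 to 23.1. The log2 fold change was -1.70 (SE 0.53, limma adjusted p = 0.0762), a scale that understates the change of so low a gene. It passed the expression filter through the inguinal libraries alone, with inguinal replicate 1 just inside it. With the columns rescaled to 1 common total, or without either inguinal library, it fell below the filter. Aldh1a2, another gene of the enzyme family, was at 0.949 to 1.27 CPM in the 4 libraries. Both inguinal libraries lay above both dermal ones for Aldh1a2, and it did not pass. Aldh8a1, on the same list of dehydrogenases, was below the filter.

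Of the retinoic acid binding proteins, Crabp1 had 1 read, in dermal replicate 2, and 0 in the other libraries. Crabp2, which delivers retinoic acid to its nuclear receptor, had 2 and 3 reads in dermal and 0 and 5 reads in inguinal libraries, or 5 in each depot. The ratio of depots for Crabp2 was 1.03, with a counting interval of 0.237 to 4.47. Neither gene was tested, and no difference was detectable at this depth. By contrast Fabp5, a fatty acid binding protein that also binds retinoic acid, was at 203 and 210 CPM in dermal libraries, against 515 and 251 CPM in the inguinal pair (log2 fold change -0.80, SE 0.31, limma adjusted p = 0.136). Inguinal replicate 1 stood apart: without inguinal replicate 2 the estimate was -1.31 (adjusted p = 0.000301), and without inguinal replicate 1 it was -0.28 (adjusted p = 0.238). With DESeq2 it was -0.90 (adjusted p = 0.0149).

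Cyp26b1, which degrades retinoic acid (chromosome 6, 84571414 to 84593908, minus strand), had 16 and 3 reads in dermal and 44 and 20 reads in inguinal libraries, or 1.46, 0.285, 3.72 and 1.94 CPM. Both inguinal libraries were higher, and the dermal libraries differed from each other by 5.12-fold. Of the dermal libraries only replicate 1 reached 1 CPM, so Cyp26b1 met the expression filter only with inguinal libraries counted. The summed inguinal level was 3.27 times the dermal one (95% counting interval 1.94 to 5.78), and the log2 fold change was -1.37 (SE 0.51, limma adjusted p = 0.122). Leaving out libraries moved the estimate from -2.03 without dermal replicate 1 (adjusted p = 0.0458) to -0.71 without dermal replicate 2 (adjusted p = 0.461). It was -1.77 without inguinal replicate 2 (adjusted p = 0.0493) and -0.98 without inguinal replicate 1 (adjusted p = 0.287). The related Cyp26a1 and Cyp26c1 had 2 reads each over all libraries.

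**Figure D3:**
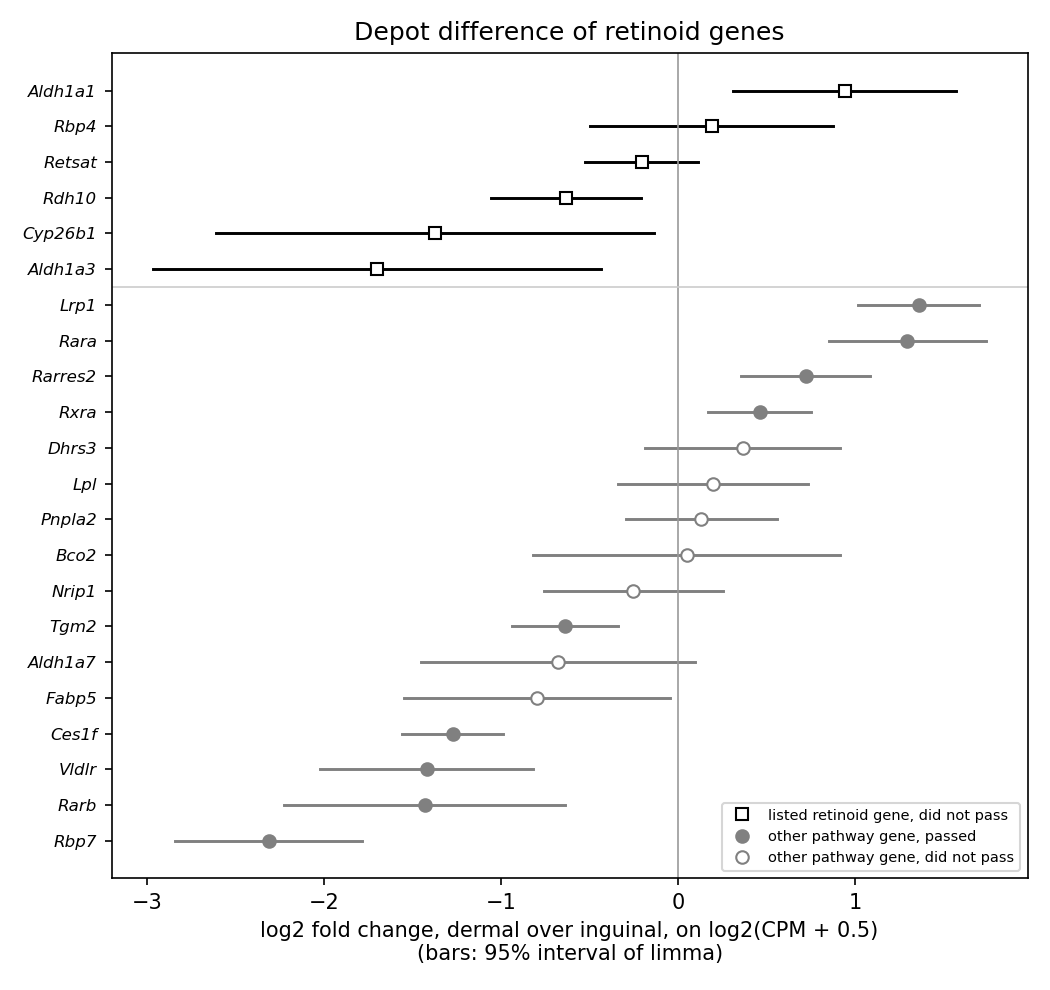
Log2 fold change (dermal over inguinal, after adding 0.5 to CPM) with the 95% interval of limma for the 6 tested retinoid genes, above, and the other named pathway genes except Ucp1, below. Filled symbols passed at an adjusted p below 0.05. All 6 retinoid genes are open, and Rbp7, at -2.31, lies farthest from 0.

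Calls were made among the other genes of the pathway. Of 65 other pathway and target genes listed, 58 were in the table and 40 were tested; 4 were called for dermal and 6 for inguinal, 25.0% of those tested against 16.4% of all genes. Among the 6, Rarb and Ucp1 reached the expression filter through the inguinal libraries alone. The lists were also drawn up with earlier results in view, so the share is a description. Rbp7, a cellular retinol-binding protein found in adipocytes and endothelium, was higher in inguinal libraries, at 80.1 and 54.3 CPM against 14.1 and 11.8 CPM (log2 fold change -2.31, SE 0.22, limma adjusted p = 0.00270). All 12 endothelial markers on the list were also called for inguinal, against 8.8% of all tested genes. Their summed level was 479 and 534 CPM in dermal replicates 1 and 2 and 1708 and 2626 CPM in inguinal replicates 1 and 2. Within each depot the endothelial sum and Aldh1a3 were higher in replicate 2, and Rbp7 and Cyp26b1 were higher in replicate 1. For Rarb the higher replicate differed by depot. The part of endothelial cells in the Rbp7, Aldh1a3, Cyp26b1 and Rarb values was not tested. In bulk libraries fewer cells of a type and less RNA per cell cannot be told apart.

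Retinyl ester turnover showed 1 call among 5 tested genes (20.0%), near the 16.4% of all tested genes. Ces1f, a carboxylesterase of a family that includes retinyl ester hydrolases, was higher in inguinal libraries, at 331 and 323 CPM against 137 and 133 CPM (log2 fold change -1.27, SE 0.12, limma adjusted p = 0.00260). It has close relatives, so its reads may be shared. Pnpla2, a triglyceride lipase gene with the highest mean CPM of this list, did not pass (log2 fold change 0.13, SE 0.18, adjusted p = 0.652), and Lrat, the main retinyl ester synthase of many tissues, had 1 to 3 reads per library. Bco2, a carotenoid-cleaving enzyme, was at 0.873 to 1.69 CPM and did not pass (adjusted p = 0.942).

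Among the 6 receptor genes, all tested, 2 were called for dermal and 1 for inguinal, beside 7.56% and 8.8% of all tested genes. The values of all 6 did not overlap between depots, as for 61.8% of all tested genes. Rara, the most widely expressed retinoic acid receptor, measured 33.6 and 39.0 CPM in dermal libraries, against 12.8 and 16.4 CPM in the inguinal pair (log2 fold change 1.29, SE 0.18, limma adjusted p = 0.00762). Rxra, a retinoid X receptor that also partners PPARG in adipocytes, measured 230 and 221 CPM against 159 and 168 CPM (log2 fold change 0.46, SE 0.12, limma adjusted p = 0.0474). The Rxra call was lost with edgeR (adjusted p = 0.0536), DESeq2 (0.0774), no filter (0.0644), no intensity trend (0.104) and 3 of the 4 omissions of a library (0.0778 to 0.316).

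Rarb, itself a classic gene induced by retinoic acid, went the other way. It had 6 and 3 reads in dermal and 22 and 21 reads in inguinal libraries, or 0.546, 0.285, 1.86 and 2.04 CPM (log2 fold change -1.43, SE 0.33, limma adjusted p = 0.0328). It passed the filter through the inguinal libraries alone, the gene overlaps Top2b on the opposite strand, and the call was lost with DESeq2 (adjusted p = 0.0885) and without dermal replicate 1 (0.0808) or 2 (0.170). Without either inguinal library Rarb was not tested. Rarg, Rxrb and Rxrg did not pass, with adjusted p of 0.279, 0.313 and 0.198.

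**Figure D4:**
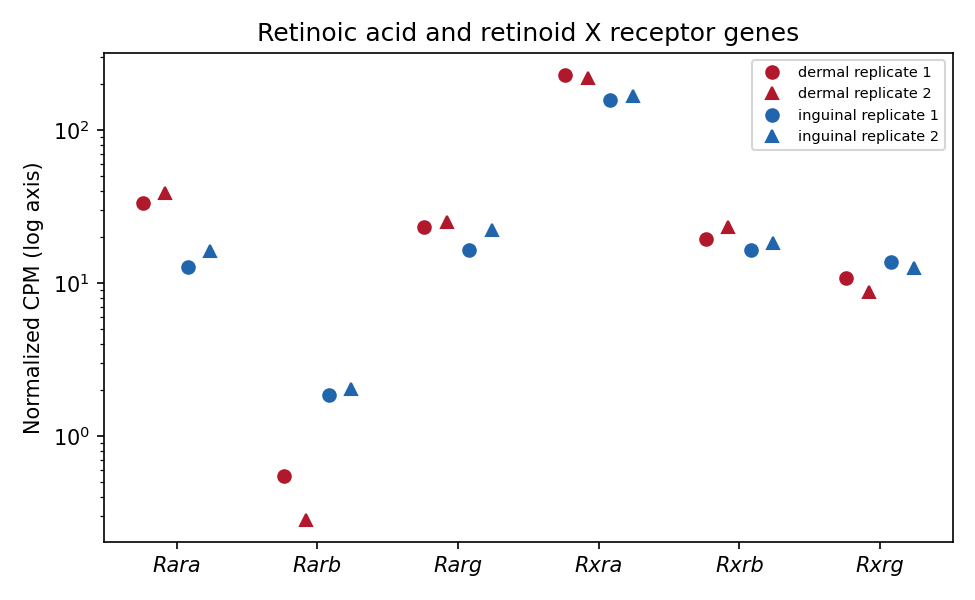
Normalized CPM (log axis) of the 3 retinoic acid receptor and 3 retinoid X receptor genes in each of the 4 libraries; colours mark the depot and shapes the replicate. Both dermal libraries lie above both inguinal ones for Rara and Rxra and below them for Rarb.

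Retinoic acid receptors bind pairs of hexamers in the same orientation, and promoters were searched for such repeats. Each hexamer was AGGTCA on either strand, with G also allowed in place of the opening A and T in place of the second G, and the repeats had a spacer of 1, 2 or 5 bases (named DR1, DR2 and DR5), in the 300 bases from 250 before to 50 after each RefSeq start. Promoters were found for 6 of the 9 retinoid genes, in 11 windows, without Rdh10, Aldh1a3 and Crabp2. None of the 11 windows held DR1, DR2 or DR5. Over all 32851 windows the shares were 0.222% for DR1, 0.268% for DR2 and 0.0974% for DR5. Among the other listed genes, DR5 occurred at Rarb and Cyp26a1, and DR1 at Bco1. The DR5 matches are shown 5′ to 3′ on the strand of the gene with the hexamers in capitals, because Rarb is the receptor gene called for inguinal.
Rarb, GRCm38.p6 chr14:16575508-16575534, minus strand: ggaagGGTTCAccgaaAGTTCActcgc
Cyp26a1, GRCm38.p6 chr19:37697771-37697797, plus strand: aaagaTGAACTttgggTGAACTaattt
The Rarb match spans bases -53 to -37 before its start, and that of Cyp26a1, on the opposite strand, bases -32 to -16. In GENCODE the Rarb gene reaches from 16430839 to 16819156 on chromosome 14, so its match lies inside the annotated gene. Such matches describe the letters only, and Cyp26a1, with 2 reads in all, was not tested.

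Genes known to be induced by retinoic acid were called in both directions. This list holds Rarb and Cyp26b1 too. Of 9 tested, 1 was called for dermal and 3 for inguinal, beside 7.56% and 8.8% of all tested genes. Rarres2, the chemerin gene, was higher in dermal libraries, at 169.8 and 168.0 CPM against 90.7 and 115 CPM (log2 fold change 0.72, SE 0.15, limma adjusted p = 0.0247). Tgm2, a transglutaminase gene that endothelial cells also express, was higher in inguinal libraries, at 261 and 267 CPM against 177 and 162 CPM (log2 fold change -0.64, SE 0.12, limma adjusted p = 0.0199). Ucp1, the uncoupling protein gene of thermogenic fat, had 1 read in dermal and 948 reads in inguinal libraries. Rarb and Ucp1 reached the expression filter through the inguinal libraries alone, so the count called for inguinal on this list is a description. Rarres2 overlaps Lrrc61 and Tgm2 overlaps Rprd1b on the opposite strand, and no source used here gives the strand setting of the counting. The calls of Rarres2 and Tgm2 were lost without the intensity trend (adjusted p of 0.0616 and 0.0540) and without either dermal library (0.0995 to 0.180). Nrip1, a nuclear receptor corepressor and the gene with the highest mean CPM of the list, measured 205 and 187 CPM in dermal libraries, against 289 and 189 CPM in the inguinal pair and did not pass (adjusted p = 0.453). Its log2 fold change was -0.56 without inguinal replicate 2 (adjusted p = 0.0305) and 0.05 without inguinal replicate 1 (adjusted p = 0.856).

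Markers of several other cell types moved between depots, and their part in the results above was not tested. Over all tested genes 7.56% were called for dermal and 8.8% for inguinal. Mature adipocyte genes summed to 40640 to 45200 CPM in every library, with 2 of 12 higher in dermal and 0 in inguinal libraries. Macrophage markers, which bear on Lrp1 since macrophages express it, were higher in dermal libraries in 10 of 11 tested (summed level 1576 to 1671 CPM in dermal and 517 to 558 CPM in inguinal libraries). Keratinocyte markers were higher in dermal libraries in 6 of 9 tested (64.2 to 98.3 CPM against 23.6 to 30.5 CPM). Of 7 tested pericyte and smooth muscle markers, 5 were called for inguinal and 2 for dermal, and their sum was 637 to 663 CPM in dermal against 580.1 to 583 CPM in inguinal libraries. Mast cell markers were called for dermal in 3 and for inguinal in 1 of 5 tested, with sums of 67.5 to 202 CPM and 40.5 to 46.1 CPM. Fibroblast and progenitor markers passed for 1 gene in each direction of 13 tested, and their sum ranged from 5934 to 13580 CPM in dermal and from 3863 to 6662 CPM in inguinal libraries. Of dermal papilla and follicle sheath markers 4 of 10 reached the filter and 1 was higher in dermal libraries. Of 9 tested Schwann cell and melanocyte markers 0 were called. For dermal, 1 of 3 tested sebocyte markers and the 1 tested mammary epithelial marker were called. The mesothelial genes Msln and Wt1 had at most 1 read in any library.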

How the data were processed

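RNA of 4 preparations of floated mature adipocytes was sequenced. The signal values the authors deposited are gene counts scaled to library size (CPM) and divided by a further factor per library. Per the submitters' processing notes the genome was mm10 and the tools named were edgeR, featureCounts from Subread 1.4.6, TopHat2 2.0.12 and Picard 1.127, with no settings or strand. In each column every value was a whole multiple of 1 step within 0.01 (100% of values), which gave back 10127125 to 12730013 reads per library, and edgeR on those reads called 2056 genes. Genes with at least 1 CPM in at least 2 libraries (12797 of 18781) were tested after a log2 transform with a pseudocount of 0.5, using the trended, two-sided fit of limma 3.58.1 (R 4.3.3), and p-values were Benjamini-Hochberg adjusted over all of them, with a threshold of 0.05. On simulated counts the fit called 47 of 100 genes changed by 1 and 91 of 100 changed by 2 on the log2 scale, and 14 of 12428 unchanged genes. The simulation changed these few genes only, while 16.4% of tested genes were called in the data, and it drew the libraries independently. Its rates therefore need not hold for the data. Alternatives were other pseudocounts, filters and scalings, edgeR 4.0.16, DESeq2 1.42.0, a replicate block and each library left out. The members and lists were chosen with earlier results of these data known. The text names every member, each pathway gene that passed and the gene with the highest mean CPM in each pathway list. Positions and exon lengths are from GENCODE M21 (GRCm38), and promoter sequences from RefSeq (GRCm38.p6).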

Additional observations from a re-analysis of the deposited data

How the results depend on the processing

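The count of genes called over all tested genes was 2094, and lay between 1644 and 2108 in the alternatives without a replicate term and between 953 and 2539 with 1 library left out. Of the 9 retinoid genes, 0 were called in either direction. The count higher in dermal libraries was 1 (Aldh1a1) with quantile normalization, with columns rescaled to 1 common total and with DESeq2, and 0 to 2 with 1 library left out. The count higher in inguinal libraries was 1 with quantile normalization (Rdh10) and with DESeq2 (Aldh1a3), and 0 to 1 with 1 library left out. Other pathway and target genes called numbered 10, or 6 to 14 with 1 library left out. The cause was not tested. Reversed signs were found for Rbp4 (-0.26 to 0.64 with 1 library left out), Bco2 (-0.039 with quantile normalization, -0.29 to 0.39 with 1 library left out) and Nrip1 (-0.56 to 0.051 with 1 library left out).

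The replicate numbers pair the libraries by number alone. Deviations from the depot means correlated at 0.464 between libraries of the same number, over genes. With the replicate number as a block limma called 4726 genes, 36.9% of all tested genes. It called 1 retinoid gene higher in dermal (Aldh1a1), 3 higher in inguinal (Rdh10, Aldh1a3 and Cyp26b1) and 17 other pathway and target genes. Values near 1 CPM rest on few reads. In the main fit 2 libraries per depot leave 2 residual degrees of freedom, and the replicate block or an omitted library leaves fewer. Omitting a library leaves its depot with 1, which is then assumed to vary like the other depot.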
